A study of Mus musculus with 10 samples.

Results

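The cytosolic ribosomal protein genes encode the proteins of the large and the small subunit of the ribosome that translates nuclear messages. They were chosen by symbol: every entry that starts with Rpl or Rps and a digit, together with Rplp0, Rplp1, Rplp2 and Rpsa, without the Rps6 kinases and without hyphenated symbols. The rule gave 88 of 23282 entries. Of these, 46 encode proteins of the large subunit and 31 proteins of the small subunit, 10 are paralogs or retrogenes, and 1, Rps19bp1, encodes a protein that binds RPS19 and is itself no ribosomal protein. The set was selected on the difference between STAT3cKO and WT, in which Rpl3 stood apart from the rest, so the differences of the members between these groups are given as descriptions. Members called in the fit over all genes are counted once, beside the share of all tested genes, and nothing is read from that count.

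The 10 libraries came from the skin of 5-month-old mice of the C57BL/6 strain. In 5 libraries, called STAT3cKO, the transcription factor STAT3 had been ablated in keratinocytes, and 5 libraries were from wild type (WT) mice without that ablation. Both groups shared strain, age and tissue, and the sources used here name neither the promoter that drove the ablation nor the exons it removed. Libraries were made from total RNA with Lexogen's QuantSeq kit, in which a transcript is read at its polyadenylated 3′ end, so a level follows the number of transcripts and can be set beside that of another gene without a correction for length. The deposited value of a gene is the log2 of its scaled reads plus 1, and differences are STAT3cKO minus WT on that scale. Whether the 10 libraries came from 10 mice is not stated, and p-values therefore cover only library-to-library spread, which may be technical.

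Each ribosome holds 1 copy of nearly every ribosomal protein, and cells make the proteins in matched amounts. Many of the messages begin with a run of pyrimidines directly at their start, the terminal oligopyrimidine tract, through which the kinase mTOR and the RNA-binding protein LARP1 set their translation and stability. RPL3 lies close to the centre of the large subunit where peptide bonds form, and mammalian cells adjust its message through its own splicing. In mouse skin the family is known from the Dark skin mutants of Rps19 and Rps20, in which keratinocytes alter the pigmentation of the skin, and from the Belly spot and tail mutant of Rpl24.

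RefSeq starts (GRCm38.p6, the build called mm10) were at hand for 67 of the 88 members. Rpl3 and Rps20 are among the other 21. A tract was taken as an unbroken run of at least 5 C or T that begins with C within 2 bases of the start. It stood at 22 of the 67 members (32.8%), against 2841 of 26958 other genes (10.5%). Where a gene had several listed starts, the start with the longest tract was used. Pyrimidine runs that began further from the annotated start, as in Rps12, Rps26 and Rps9, were not counted as tracts. The shares therefore depend on the annotation of starts. The 30 bases around the start, 10 before it and 20 from it on, show the difference between members with and without a tract. Capitals mark the tract. Rps6, the target of the S6 kinases, Rpl15, Rps10 and Rps24 have one, while Rps2, Rpl24, Rps23 and Rps15, whose levels are described below, have none by this definition.
Rps6 (chr4:86857348-86857377, minus strand): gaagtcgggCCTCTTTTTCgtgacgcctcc
Rpl15 (chr14:18270967-18270996, minus strand): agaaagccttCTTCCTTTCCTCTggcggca
Rps10 (chr17:27635225-27635254, minus strand): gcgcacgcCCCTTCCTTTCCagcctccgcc
Rps24 (chr14:24490668-24490697, plus strand): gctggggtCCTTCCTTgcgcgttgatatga
Rps2 (chr17:24720053-24720082, plus strand): gtcgagatctcgcgcttcttggagcactat
Rpl24 (chr16:55966265-55966294, plus strand): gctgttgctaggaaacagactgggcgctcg
Rps23 (chr13:90923112-90923141, plus strand): cggctgggcggggcttcccgcaatgccttg
Rps15 (chr10:80292421-80292450, plus strand): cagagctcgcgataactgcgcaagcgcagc

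The 300 bases from 250 before to 50 after each listed RefSeq start of a gene were searched on both strands. A gene was counted when any of its windows held the motif. The ETS letters CCGGAAG stood in 26 of 67 members (38.8%) and in 9.86% of other genes. The YY1 letters AAGATGG stood in 10 members (14.9%) and in 7.26% of other genes, and the E-box CACGTG in 6 members (8.96%) and in 8.09%. The letters TTCNNNGAA, to which STAT factors are known to bind, stood in 4 members, Rpl35, Rpl36al, Rpl4 and Rplp0 (5.97%), and in 9.56% of other genes. A match is only a run of letters, and motifs that overlapped at a site were each counted.

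Estimated depth ran from 7110000 to 18500000 reads. The 4 deeper libraries were STAT3cKO 4 and 5 and WT 1 and 2, and the other 6 held at most 9930000 reads, so both groups held both kinds. STAT3cKO 2 stood apart in having no read for 2617 of the 11536 tested genes. WT 3 followed with 1273, and the other 8 libraries had 83 to 1097. All 77 genes of the 2 subunits had reads in every library and passed the filter on low values (at least 5 in at least 5 libraries). So did 9 of the 10 paralogs and retrogenes and Rps19bp1, while Rpl10l had a read in STAT3cKO 1 only and was not tested.

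The genes of the 2 subunits spanned a wide range of levels. The mean over the 10 libraries ran from 9.96 for Rpl27 to 15.87 for Rps20, a 60-fold span, with a median of 12.73. Rps20, a protein of the head of the small subunit, had 15.86, 15.81, 15.93, 15.95 and 16.02 in STAT3cKO 1 to 5 and 16.16, 15.60, 15.75, 15.96 and 15.64 in WT 1 to 5. The groups overlapped, and no library of either group lay far from the rest. Rps9, which lies at the mouth of the messenger RNA entry channel, followed at a mean of 15.70, with 15.31, 15.93, 15.77, 15.72 and 15.64 in STAT3cKO 1 to 5 and 16.39, 15.93, 15.88, 15.19 and 15.26 in WT 1 to 5. WT 1 was its highest library and WT 4 its lowest. Rps24 stood at a mean of 15.24, with 15.03, 15.08, 15.35, 15.11 and 15.22 in STAT3cKO 1 to 5 and 15.61, 14.92, 15.48, 15.31 and 15.25 in WT 1 to 5, and its groups overlapped.

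The lowest levels were those of Rpl27, Rps13 and Rpl29. Rpl27 had 10.25, 9.76, 10.31, 9.28 and 9.39 in STAT3cKO 1 to 5 and 9.30, 10.21, 9.93, 10.94 and 10.25 in WT 1 to 5, with means of 9.80 ± 0.47 in STAT3cKO and 10.13 ± 0.59 in WT (SD, n = 5 each). Rps13 had 10.39, 10.74, 10.37, 9.67 and 9.61 in STAT3cKO 1 to 5 and 10.06, 9.99, 10.56, 10.59 and 10.10 in WT 1 to 5. Rpl29 had 11.18, 10.08, 11.15, 9.76 and 9.91 in STAT3cKO 1 to 5 and 10.07, 9.98, 11.09, 12.04 and 11.21 in WT 1 to 5. For each of the 3 genes the groups overlapped, WT 4 was the highest library for Rpl27 and Rpl29, and neighbours in this order differed by less than the spread between libraries. Levels of some members are uncertain because ribosomal protein genes have many processed copies in the genome. For 39 of the 77 genes the last 150 bases of the transcript had at least 1 near-identical copy in transcripts annotated for other genes. A copy had at least 95% identity over at least 100 bases, on either strand. For Rpl31 and Rpl5 the only match was the gene that overlaps them on the other strand, Tbc1d8 and Fam69a, so it is no copy elsewhere. The 39 had a median level of 12.46 and the 38 without a copy one of 12.99. The last exon of 7 of the 77 genes, Rpl23a, Rpl28, Rpl31, Rpl32, Rpl35, Rpl5 and Rps25, overlaps a gene on the other strand. That of the paralog Rpl22l1 overlaps Gm33051 on the other strand. No source used here says whether reads were counted by strand.

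Rpl3 (chr15:80077791-80091868, minus strand, 10 exons, mm10) had the largest difference among the 77 genes of the 2 subunits. Its level was 13.04, 12.85, 13.22, 13.02 and 13.08 in STAT3cKO 1 to 5 and 10.79, 10.50, 11.27, 11.49 and 10.94 in WT 1 to 5. The lowest STAT3cKO library exceeded the highest WT library, and the gap between the groups was wider than the spread within either. The means were 13.05 ± 0.13 in STAT3cKO and 11.00 ± 0.39 in WT (SD, n = 5 each), a difference of 2.05 or 4.13-fold. The STAT3cKO libraries were close to each other: the SD of Rpl3 ranked 11th from the lowest among the 77 genes in STAT3cKO and 52nd in WT. No near-identical copy of the end of its transcript was found among annotated transcripts, and its 3′ end overlaps no gene on the other strand.

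Among the 77 genes Rpl3 ranked 31st in level in STAT3cKO and 73rd in WT. It took 0.0818 ± 0.0073% of all reads in STAT3cKO libraries and 0.0188 ± 0.0049% in WT libraries. Set against the median of the other genes of the 2 subunits in the same library, Rpl3 stood at 0.24, −0.05, 0.21, 0.69 and 0.76 in STAT3cKO 1 to 5, and at −1.94, −1.99, −1.79, −1.54 and −1.91 in WT 1 to 5. In STAT3cKO libraries it was thus near or above the middle of the family, and in WT libraries it was below the middle by more than 1.5. The mean of this measure was 0.37 ± 0.35 in STAT3cKO and −1.83 ± 0.18 in WT, a difference of 2.20. Within the 4 deeper libraries the difference of Rpl3 was 2.41 (SE 0.34) and within the 6 shallower ones 1.81 (SE 0.35). Without any 1 library it was 1.92 to 2.17.

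**Figure D1:**
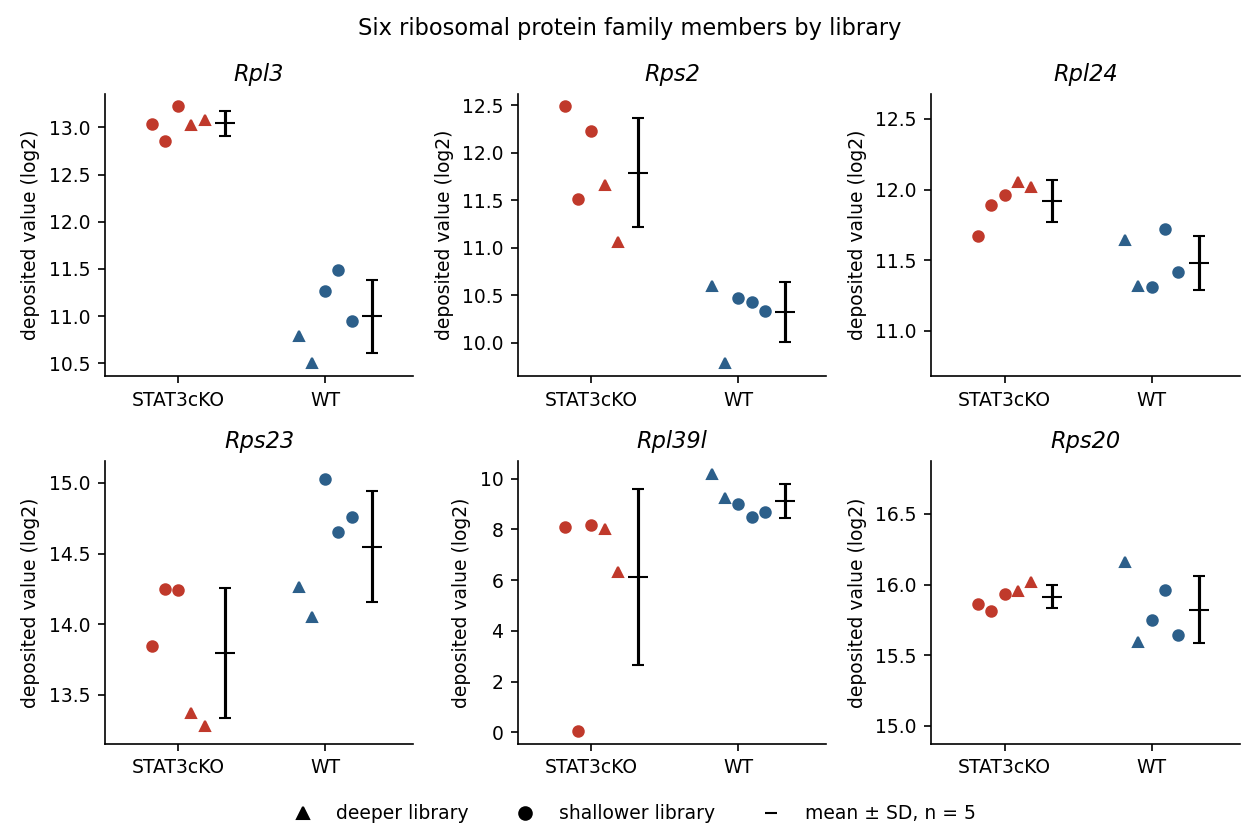
Deposited log2 value (y axes, own range for each gene) of 6 members in each STAT3cKO and WT library, with triangles for the 4 deeper and circles for the 6 shallower libraries, and mean ± SD (n = 5) beside the points. Rpl3 and Rps2 have all STAT3cKO points above all WT points, Rpl39l has all below, and Rpl24, Rps23 and Rps20 overlap.

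Rps2 (chr17:24718116-24721929, plus strand), a small subunit protein near the messenger RNA entry channel, had the second largest difference among the 77 genes. Its level was 12.49, 11.51, 12.23, 11.66 and 11.06 in STAT3cKO 1 to 5 and 10.59, 9.78, 10.47, 10.43 and 10.33 in WT 1 to 5. The groups did not overlap, but STAT3cKO 5 lay within 0.5 of WT 1, and the STAT3cKO libraries were spread more widely. The means were 11.79 ± 0.57 in STAT3cKO and 10.32 ± 0.32 in WT, a difference of 1.47 or 2.77-fold. Without any 1 library the difference was 1.30 to 1.65. It was 1.18 (SE 0.42) within the deeper and 1.66 (SE 0.41) within the shallower libraries. The end of the Rps2 transcript has near-identical copies in annotated transcripts of 46 other genes, the most among the members checked. How many of its reads were placed on Rps2 is therefore uncertain. Set against the median of the family, Rps2 stood at −0.89 on average in STAT3cKO libraries and at −2.51 in WT libraries, below the middle in both.

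Among all 87 tested members, Rpl3 and Rps2 were called higher by limma (Benjamini-Hochberg adjusted p under 0.05) and 0 were called lower, where 0.529% of the 11536 tested genes were called higher and 0.459% lower. Over all tested genes these shares are 61 and 53 genes, or 75 and 39 when libraries were scaled to the same total. The groups did not overlap for 2 members that were higher in STAT3cKO, where 1.71% of tested genes were so, and for 1 that was lower, Rpl39l, where 1.72% were. Rps2 was not called when any 1 of STAT3cKO 1, 3 or 4 or WT 1, 2, 3 or 5 was left out. The members were selected with this contrast in view, and nothing is read from these counts.

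The other 75 genes of the 2 subunits had differences between −0.75 for Rps23 and 0.44 for Rpl24. Of all 77, 59 were negative and 18 positive, with a median of −0.17. The median of all tested genes was −0.16. The family median was negative on every scale, but its size followed the scaling. After scaling to the same total 50 of 77 were negative with a median of −0.06 (all tested genes −0.05, a shift of 0.11). After median centring 60 were negative with a median of −0.18 (all tested genes −0.17). After quantile normalization 40 were negative with a median of −0.01 (all tested genes −0.01, a shift of 0.15). Relative to all tested genes, the family as a whole thus stood within 0.02 on each of these scales. The differences were narrow: 69 of 77 (89.6%) lay within 0.5 of 0, against 35.9% of all tested genes and 56.9% of the 343 tested genes with a mean level of at least 12.

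**Figure D2:**
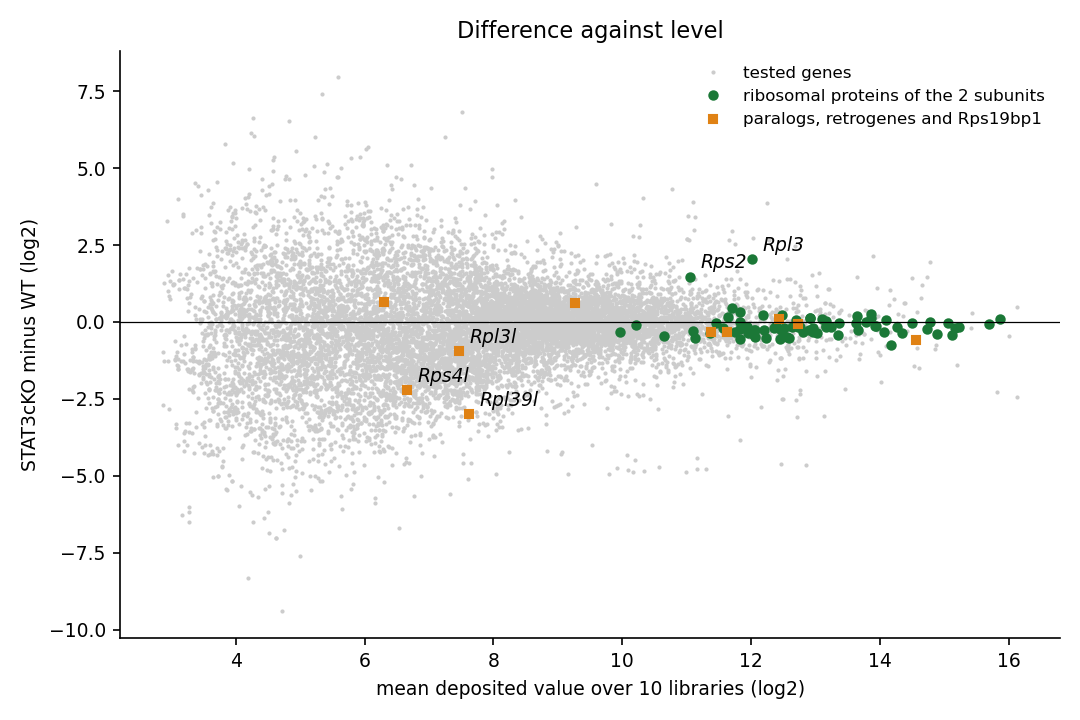
Difference between STAT3cKO and WT (y axis, log2) against the mean level over 10 libraries (x axis, log2) for the 11536 tested genes (grey), the 77 genes of the 2 ribosomal subunits (green circles) and the other tested members (orange squares). Most green points lie between −0.75 and 0.44, with Rpl3 at 2.05 and Rps2 at 1.47 above them, and the low paralogs Rpl39l, Rps4l and Rpl3l lie below 0.

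The large subunit had a median difference of −0.17, with 35 of 46 genes negative, and the small subunit one of −0.16, with 24 of 31 negative. Large subunit genes took 4.33 ± 0.41% of reads in STAT3cKO and 4.46 ± 0.30% in WT, and small subunit genes 3.82 ± 0.38% in STAT3cKO and 3.84 ± 0.43% in WT. The ratio of large to small subunit reads was 1.13 ± 0.04 in STAT3cKO and 1.17 ± 0.07 in WT. All 88 members together took 8.54 ± 0.83% of reads in STAT3cKO and 8.75 ± 0.74% in WT. Each of these measures differed between the groups by less than its spread between libraries. In whole skin, fewer cells of a type and less RNA per cell cannot be told apart.

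Among large subunit proteins, Rpl24, which sits at the bridge between the subunits, had 11.68, 11.89, 11.97, 12.05 and 12.02 in STAT3cKO 1 to 5 and 11.64, 11.32, 11.31, 11.72 and 11.41 in WT 1 to 5. The difference was 0.44, and WT 4 lay above STAT3cKO 1, so the groups overlapped. Rpl5 and Rpl11, which carry the ribosomal 5S RNA and bind the p53 regulator MDM2 when assembly fails, had differences of −0.17 and −0.20. The proteins of the acidic stalk, which recruits translation factors, did not share a sign: Rplp0 had 0.08, Rplp1 −0.05 and Rplp2 −0.50. Rpl38, whose loss in mouse alters the axial skeleton in the Tail short mutant, had −0.26, and Rpl4, a protein of the peptide exit tunnel, had −0.40.

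Among small subunit proteins, Rps23, which lies at the decoding centre, had the most negative difference. Its level was 13.85, 14.25, 14.24, 13.38 and 13.28 in STAT3cKO 1 to 5 and 14.26, 14.05, 15.03, 14.65 and 14.76 in WT 1 to 5. STAT3cKO 2 and 3 lay above WT 2, so the groups overlapped, and in both groups the deeper libraries were the low ones. The difference was −0.75, and without any 1 library it was −0.88 to −0.62. Rps19, one of the Dark skin genes, had 11.56 ± 0.72 in STAT3cKO and 12.11 ± 0.37 in WT, a difference of −0.55, while the other Dark skin gene, Rps20, had 0.09. Rps6 had −0.15.

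**Figure D3:**
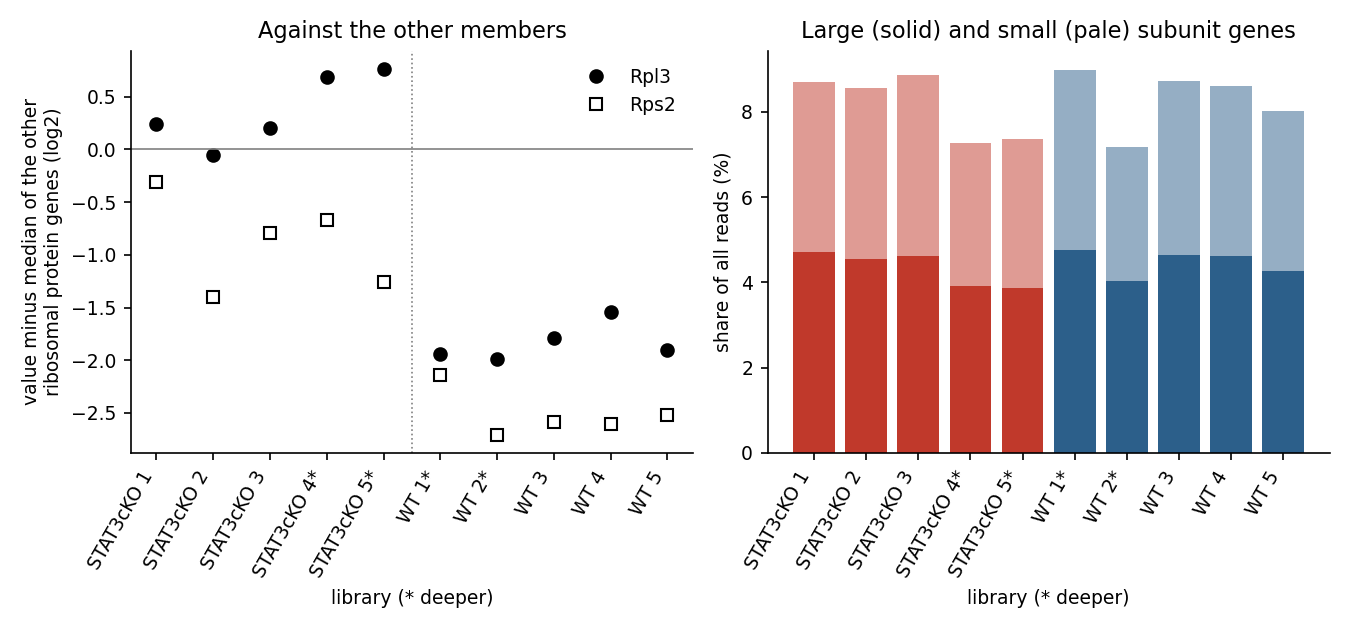
Left, value of Rpl3 (filled circles) and Rps2 (open squares) minus the median of the other genes of the 2 subunits in the same library (y axis, log2), with STAT3cKO libraries left of the dotted line and WT libraries right of it. Right, share of all reads (y axis, %) taken by large subunit genes (solid) and small subunit genes (pale) in STAT3cKO (red) and WT (blue) libraries; Rpl3 stands between −0.05 and 0.76 in STAT3cKO and between −1.99 and −1.54 in WT, while the summed shares overlap.

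The paralogs and retrogenes ranged widely in level, and Rpl39l, Rpl3l and Rps4l among them were low and spread widely between libraries. Rpl39l, a paralog of Rpl39 known for its role in male germ cells in mouse, had 8.09, 0.06, 8.16, 8.01 and 6.32 in STAT3cKO 1 to 5 and 10.19, 9.24, 9.0, 8.48 and 8.68 in WT 1 to 5. All STAT3cKO libraries were below all WT libraries, but STAT3cKO 2, the library with the most tested genes without a read, had none here. The difference was −2.99 with STAT3cKO 2 and −1.47 without it.

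Rpl3l, the paralog that takes the place of Rpl3 in skeletal and heart muscle, had 3.07, 8.11, 8.99, 10.17 and 4.64 in STAT3cKO 1 to 5 and 7.18, 10.30, 3.87, 8.86 and 9.50 in WT 1 to 5. Both groups held libraries with high and with low values. The difference was −0.95, and it rested on single libraries: it was 0.03 without STAT3cKO 1 and −1.97 without WT 3, the ends of its range when 1 library was left out. The mean of 10 skeletal muscle markers was 7.42, 12.51, 11.43, 13.32 and 8.18 in STAT3cKO 1 to 5 and 10.46, 13.55, 12.19, 13.10 and 14.47 in WT 1 to 5. The 2 STAT3cKO libraries with the lowest muscle markers, 1 and 5, were also those with the lowest Rpl3l, and WT 3 had the lowest Rpl3l and the second lowest muscle markers of its group. The part of muscle in the value of Rpl3l was not tested.

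Rps4l, annotated as a transcribed processed pseudogene, had 7.32, 6.21, 1.06, 6.33 and 6.85 in STAT3cKO 1 to 5 and 7.08, 7.28, 7.75, 8.46 and 8.27 in WT 1 to 5. STAT3cKO 1 lay above WT 1 and 2, and STAT3cKO 3 was far below the rest. The difference was −2.21, or −1.09 without STAT3cKO 3. Rpl37rt, a transcribed processed pseudogene named after Rpl37, was the most abundant of the class. It had 14.38, 14.88, 14.28, 13.85 and 13.98 in STAT3cKO 1 to 5 and 14.79, 14.74, 14.84, 14.80 and 15.05 in WT 1 to 5, and only STAT3cKO 2 reached the WT range. Its means were 14.27 ± 0.40 in STAT3cKO and 14.85 ± 0.12 in WT, a difference of −0.57. Near-identical copies were not counted for Rps4l and Rpl37rt, so how many of their reads were placed rightly is not known.

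Rpl22l1, the paralog of Rpl22, had 11.40, 11.36, 11.36, 10.80 and 11.17 in STAT3cKO 1 to 5 and 11.30, 11.17, 11.31, 12.43 and 11.46 in WT 1 to 5, with WT 4 above and STAT3cKO 4 below the rest and a difference of −0.32, or −0.09 without WT 4. Rpl7l1 had 9.33, 9.30, 10.21, 9.56 and 9.47 in STAT3cKO 1 to 5 and 9.18, 8.57, 7.72, 9.78 and 9.59 in WT 1 to 5. WT 2 and WT 3 were its lowest libraries, and its difference was 0.61, or 0.29 without WT 3. Rps27l, a p53 target in mammalian cells, had 11.29, 10.91, 11.77, 12.06 and 11.26 in STAT3cKO 1 to 5 and 11.78, 11.61, 11.59, 12.01 and 11.98 in WT 1 to 5, a difference of −0.34 with overlapping groups.

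The other 2 members of the class differed little between the groups. Rpl36al, a retrogene of Rpl36a, had 12.19, 12.35, 12.61, 12.54 and 12.74 in STAT3cKO 1 to 5 and 12.43, 12.30, 12.48, 12.57 and 12.20 in WT 1 to 5, a difference of 0.09. Rps27rt had 12.88, 13.40, 13.22, 11.98 and 12.01 in STAT3cKO 1 to 5 and 12.65, 12.13, 13.18, 12.75 and 13.03 in WT 1 to 5, a difference of −0.05, and both of its lowest STAT3cKO values were in the deeper libraries. The end of Rps27rt has a near-identical copy in Rps27. A stretch of the end of Rpl7l1 matched transcripts of 11 other genes, among them Cd9, Madd and Usp53, which are no ribosomal protein genes. The reads of Rps27rt and Rpl7l1 are therefore uncertain. Rps19bp1 had 7.34, 3.24, 7.89, 6.25 and 8.44 in STAT3cKO 1 to 5 and 7.36, 6.97, 0.06, 7.71 and 7.77 in WT 1 to 5. Its difference of 0.66 became −0.82 without WT 3, the library with no read of it, and 1.51 without STAT3cKO 2.

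Within each group the median of the family varied between libraries, from 12.32 to 13.02 in STAT3cKO and from 12.49 to 13.06 in WT, and it moved with depth. Depth was not used to choose the members. With genotype in the model, 9 of the 11536 tested genes were called between the 4 deeper and the 6 shallower libraries (limma, Benjamini-Hochberg adjusted p under 0.05), 6 lower and 3 higher in the deeper ones. Of the 6, which are 0.052% of tested genes, 2 were members. Rps15, a small subunit protein near the decoding site, had 12.25 and 11.73 in the deeper STAT3cKO libraries and 12.61 and 12.28 in the deeper WT libraries, against 13.08 to 13.55 in the shallower STAT3cKO libraries and 13.55 to 13.63 in the shallower WT libraries. The deeper libraries were below the shallower ones in both groups, with a difference of −1.25 (SE 0.20, limma adjusted p = 0.0243). Rps6 had −1.21 (SE 0.21, limma adjusted p = 0.0437).

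Rps6 had 11.16 and 11.11 in the deeper and 12.30, 12.32 and 12.40 in the shallower STAT3cKO libraries, and 11.45 and 11.11 in the deeper and 12.41, 12.71 and 12.37 in the shallower WT libraries. Again each deeper library was below each shallower library of its group. Of the 77 genes 63 were lower in the deeper libraries, with a median of −0.33, whereas the median of all tested genes was 0.33 and 35.5% of them were lower. The deeper libraries lay below the shallower ones without overlap in both groups for 30 of the 87 tested members, against 2.05% of all tested genes. They lay above in both groups for 4 members, against 3.16%. These 4 were Rpl35a, Rpl4, Rplp1 and Rps27a. Rps27a, which is made as a fusion with ubiquitin, was higher in the deeper libraries by 0.85 (SE 0.20, limma adjusted p = 0.129) and Rplp1 by 0.67 (SE 0.18, limma adjusted p = 0.210).

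Genes with a near-identical copy had a median of −0.52 in this contrast and genes without one a median of −0.29. Rpl31 and Rpl5 were counted with the first set, though their only match was the gene that overlaps them. The median level of the other genes ran from 12.32 to 12.73 in the 4 deeper and from 12.80 to 13.06 in the 6 shallower libraries. The share of reads taken by all members was 7.57 to 9.42% in deeper and 8.53 to 9.28% in shallower libraries, with WT 1 the deeper library at the top. Rpl3 had −0.29 in this contrast and Rps2 −0.47, small beside their differences between STAT3cKO and WT. The labels do not say how the deeper libraries differed from the others in preparation, and the part of depth in these differences was not tested apart from whatever else they share.

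**Figure D4:**
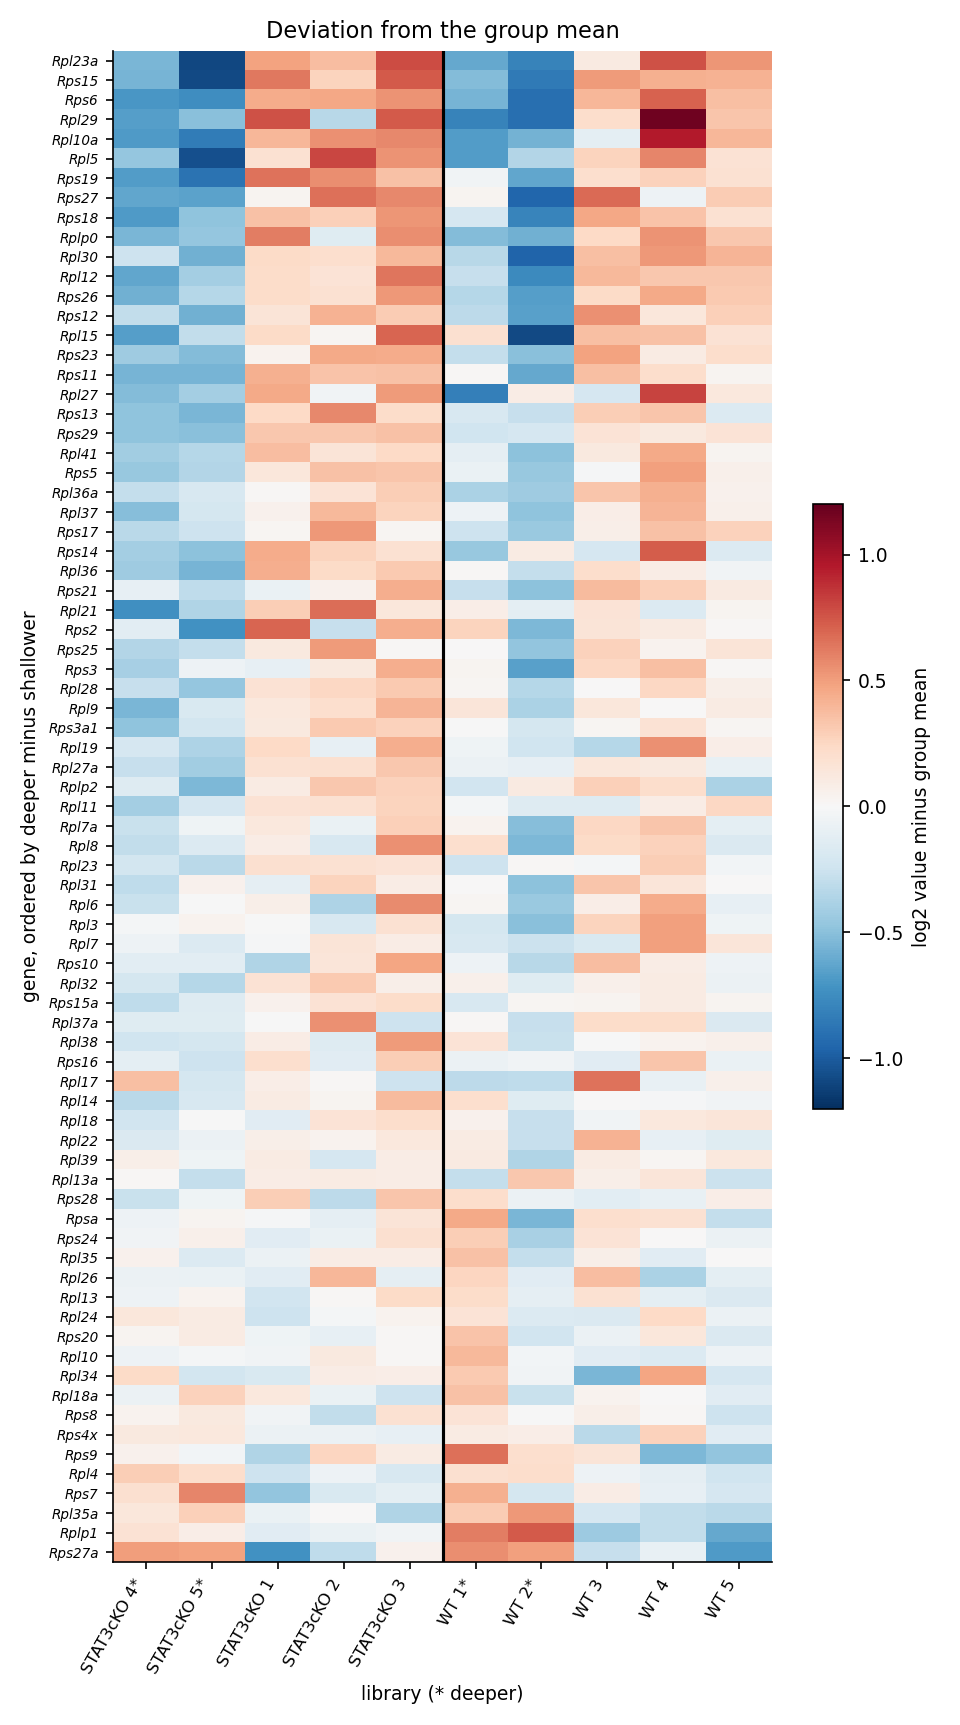
Deviation of each of the 77 genes of the 2 subunits (rows, ordered by deeper minus shallower) from its group mean (colour, log2) in the 10 libraries (columns, STAT3cKO left of the black line and WT right of it, * deeper). Most rows are blue in the deeper and red in the shallower libraries of both groups, and a few at the bottom, led by Rps27a and Rplp1, run the other way.

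The genes also moved together from library to library within the groups. After the group means had been subtracted, the median Pearson r over the 10 libraries was 0.42 between pairs of the 77 genes and 0.0024 between pairs of the 3268 tested genes with a mean level of at least 9, and 74.0% and 50.2% of pairs were above 0. When the means of the depth classes were subtracted too, the medians were 0.26 and 0.00045. The points share library, depth and scaling, so these values describe the libraries. The median r with the rest of the family was 0.39 for Rpl3 and 0.49 for Rps2, below and above the 0.42 over all pairs. The means of the depth classes were not subtracted for the values of single genes. For 10 genes the median r was below 0, with Rpl4 (−0.63), Rpl35a (−0.62) and Rps27a (−0.51) the lowest.

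The genes most like Rpl3 over the 10 deposited values were Mettl17 (Pearson r = 0.98 over 10 libraries), Slc27a4 (0.97), Tmem254b, Tmem254a and Elovl3 (0.96 each). Each of them was also higher in every STAT3cKO library than in every WT library. Tmem254a and Tmem254b had nearly the same value in each library and may share reads. Slc27a4, a fatty acid transport protein of the epidermal barrier, had 12.50, 11.86, 11.63, 11.85 and 11.42 in STAT3cKO 1 to 5 and 8.80, 7.84, 9.38, 9.60 and 7.94 in WT 1 to 5. Elovl3, a fatty acid elongase of sebaceous glands, had 12.34 to 13.65 in STAT3cKO and 6.20 to 10.33 in WT. Mettl17, a mitochondrial protein, had 6.92 to 8.51 in STAT3cKO and was at most 3.40 in WT, where WT 1 and 2 were at 0, so it was near the floor of these libraries. The differences of these genes were 3.14 for Slc27a4 (SE 0.38), 4.31 for Elovl3 (SE 0.61), 2.70 for Tmem254b (SE 0.30) and 2.66 for Tmem254a (SE 0.29).

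After the group means were subtracted, the genes most like Rpl3 were Dsp (r = 0.93 over 10 libraries), Aim1 (0.92), S100a14 (0.91), Lsm8 and Anxa1 (0.90 each). Dsp, the desmosomal protein desmoplakin, had 13.35, 12.82, 13.34, 13.30 and 13.17 in STAT3cKO 1 to 5 and 12.11, 11.86, 12.47, 12.86 and 12.30 in WT 1 to 5, so the groups overlapped between STAT3cKO 2 and WT 4. Its difference was 0.88 (SE 0.25, limma adjusted p = 0.107). Both genes were lowest in STAT3cKO 2 within STAT3cKO, and highest in WT 4 and lowest in WT 2 within WT. S100a14, an epithelial calcium-binding protein, had 12.23 to 14.02 in STAT3cKO and 11.38 to 14.10 in WT, and Aim1 had 10.92 to 11.75 in STAT3cKO and 9.06 to 11.32 in WT. Both were also lowest in STAT3cKO 2 and WT 2 and highest in WT 4 within WT. Lsm8 had a difference of −0.15 and Anxa1 one of 0.27.

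Markers of the cells in skin are given beside Rpl3. The summed levels of every marker set overlapped between the groups, and 1 marker in all was called. All 7 keratinocyte markers in the files had a positive difference, with a median of 1.30, 0 called and summed levels of 85.5 to 95.3 in STAT3cKO and 78.0 to 86.9 in WT. All 8 adipocyte markers were negative (median −2.35, sums 68.8 to 94.6 in STAT3cKO and 91.8 to 109 in WT), as were all 10 skeletal muscle markers (median −1.92, sums 74.2 to 133 in STAT3cKO and 105 to 145 in WT). Macrophage markers were negative in 8 of 8 (median −0.68, sums 64.4 to 86.6 in STAT3cKO and 78.6 to 88.9 in WT). Of 7 fibroblast markers 3 were positive and 1 was called lower (median −0.89, sums 77.5 to 95.5 in STAT3cKO and 87.9 to 90.6 in WT). Of 5 erythrocyte markers 3 were positive (median 0.61, sums 49.9 to 68.5 in STAT3cKO and 50.5 to 60.9 in WT). The 4 T cell markers had low sums (1.48 to 14.3 in STAT3cKO and 9.64 to 23.1 in WT). No marker was at 0 in all libraries, and the part of cell composition in the difference of Rpl3 was not tested.

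Genes of translation outside the naming rule were described by lists. Over all of them, 296 genes were tested, 0 were called higher and 2 lower, with a median of −0.25, where 0.529% and 0.459% of all tested genes were called and their median was −0.16. Among ribosomal proteins with other symbols, Gnb2l1, which encodes the scaffold RACK1, had a difference of 0.57 (SE 0.26, limma adjusted p = 0.449). Fau, whose product is cut to yield a small subunit protein, had −0.41 (SE 0.26, limma adjusted p = 0.582). Both differences were smaller in size than that of Rpl3.

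Of 26 other genes with known or presumed terminal oligopyrimidine messages 1 was called lower and 0 higher (7 positive, median −0.26). That gene was Lgals1, which encodes the lectin galectin 1. It had 11.19, 10.84, 10.44, 10.73 and 11.08 in STAT3cKO 1 to 5 and 12.58, 12.40, 12.66, 12.14 and 12.22 in WT 1 to 5, with no overlap. It fell by 1.54 (SE 0.26, limma adjusted p = 0.00397), and the call was made in all 10 fits without 1 library (−1.62 to −1.44). Of 16 snoRNA host genes 1 was called lower and 0 higher (5 positive, median −0.38). Snhg18 fell to 8.02 ± 0.22 in STAT3cKO, against 10.05 ± 0.76 in WT, by 2.04 (SE 0.43, limma adjusted p = 0.0248), and the call was made in 4 of the 10 fits, those without STAT3cKO 2, 3 or 5 or WT 4.

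The other lists had 0 calls in either direction. Of 49 initiation and elongation factors 18 were positive (median −0.14), and Eif4a2, an RNA helicase of initiation, had −1.30 (SE 0.35, limma adjusted p = 0.0883). Etf1, a release factor, had 0.59 and Eif3h −0.50. Of 96 genes of ribosome biogenesis 35 were positive (median −0.23), and Gnl3l, a nucleolar GTPase, had 1.33 (SE 0.44, limma adjusted p = 0.197). Nhp2 had 1.07 and Wdr74 2.67, the second with a low WT 3 of 2.36. Of the 4 factors that handle RPL3 1 was positive. Grwd1, the chaperone of newly made RPL3, had 6.98, 1.30, 2.68, 4.38 and 5.39 in STAT3cKO 1 to 5 and 5.74, 6.54, 7.39, 7.50 and 6.49 in WT 1 to 5. The groups overlapped at low levels, with STAT3cKO 1 among the WT values (−2.59, SE 1.51, limma adjusted p = 0.551). Npm1 had −0.20, and Mettl18, which methylates RPL3, had 0.94 with no read in STAT3cKO 2 and WT 3.

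Of 17 genes of RNA polymerase I 4 were positive (median −0.70), and Taf1c, a subunit of its promoter selectivity factor, had 4.71 (SE 1.63, limma adjusted p = 0.235), with no read in WT 1 and 3. Cd3eap had 1.49 and Polr2l −0.88. Of 75 mitochondrial ribosomal proteins 13 were positive (median −0.45), and Mrps6 had −1.79 (SE 0.46, limma adjusted p = 0.0747). Mrpl33 and Mrps21 had −0.71 and −0.73. Of 27 regulators in the mTOR and MYC pathways 15 were positive (median 0.04). Tsc2, an inhibitor of mTOR signalling, had 1.10 (SE 0.44, limma adjusted p = 0.346), but its 3′ end overlaps that of Pkd1 on the other strand and the values of both genes were within 0.54 of each other in every library. For Tsc2 reads of the 2 genes could not be told apart. Eif4ebp1, a repressor of initiation that mTOR switches off, had −0.89 (SE 0.41, limma adjusted p = 0.446). Rps6ka2, an Rps6 kinase gene outside the naming rule, had −3.97 (SE 1.72, limma adjusted p = 0.409) with no read in STAT3cKO 2 and 5.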

How the data were processed

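Each library has a table of log2 values by gene symbol, deposited by the authors. Bowtie2, bedtools and the mouse build mm10 are named in the submitters' processing notes; the sources used here give no versions, annotation, strand, scaling or duplicate handling. No header names a unit. The values behaved as log2 of scaled reads plus 1: low values were whole multiples of 1 step per library (88.6 to 100% within 0.15 of a read, up to 20 reads), and the sum divided by the step gave the depth. Intervals and floors from such depths would cover counting error only.

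Genes with a value of at least 5 in at least 5 libraries (11536 of 23282 entries) were fitted by a linear model of genotype (limma 3.58.1, R 4.3.3; trended and robust moderation, Benjamini-Hochberg adjustment over all tested genes, calls at 0.05). The steps were tested on simulated data. The fit of deeper against shallower libraries was added after seeing the data. Members, lists and the rule for named genes (Rpl3, the extremes of difference and level, called members, paralogs, the genes most like Rpl3, and the called or lowest-p genes of each list) were chosen with earlier results of these data known. Copies were counted by aligning transcript ends of GENCODE M21 to its annotated transcripts, so copies outside the annotation were not counted. Starts were taken from RefSeq. Left out were 7 hyphenated symbols and 10 Rps6 kinase genes. Alternatives were other scalings, filters and pseudocounts, depth classes, a replicate block and leaving out libraries. Figures used matplotlib 3.10.9. Results for some genes outside the family are not reported here.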

Additional observations from a re-analysis of the deposited data

Results flagged for a closer look

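In 46 sets of 5 libraries (the named members and the summed measures in each group), 6 had a library whose gap to its nearest neighbour exceeded 0.71 of the group's range, Dixon's limit, which chance passes in about 1 of 20 sets. Rpl22l1 was high in WT 4, at 12.43. Rpl7l1 was high in STAT3cKO 3, at 10.21. Rpl39l was low in STAT3cKO 2, at 0.064, and Rps19bp1 in WT 3, at 0.057, the 2 libraries with the most genes without a read. Rps4l was low in STAT3cKO 3, at 1.06. The ratio of large to small subunit reads was high in WT 2, at 1.29. Neither Rpl3 nor Rps2 had such a library in either group.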

How the results depend on the processing

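The members were selected on the contrast between STAT3cKO and WT, so the values below describe how their differences and counts moved and support nothing. The standing of Rpl3 against the family (2.20) was 2.69 in the deeper and 1.88 in the shallower libraries alone, and 2.10 to 2.31 without 1 library. Of 440 differences of the 20 named members under alternatives, 436 moved by less than the spread between libraries, and 20 in 7 members had the other sign. The replicate block, the filters, leaving out trend and robust estimation, and depth class as a second term cannot change a difference of group means. Values under these settings were unmoved by construction, so the 436 overstates how stable the differences were. Called members (2) were 1 under the replicate block, without STAT3cKO 2 and WT 3 together, without trend and robust estimation, and in either depth class, and 1 to 2 without 1 library. They were 3 with depth class as a second term, a fit that was not planned. Called genes of the translation lists (2) were 1 under the replicate block, without STAT3cKO 2 and WT 3 together and in the deeper libraries, 0 without trend and robust estimation and in the shallower libraries, and 1 to 3 without 1 library. They were 3 after quantile normalization, with a pseudocount of 16 and with depth class as a second term. The count over all genes (114) was 66 under the replicate block, 181 after quantile normalization, 175 with a pseudocount of 16, 44 without trend and robust estimation, 174 in the deeper and 16 in the shallower libraries, and 55 (without WT 1) to 197 (without WT 4) without 1 library. With depth class as a second term it was 139. The median r within the family (0.42) was 0.50 without STAT3cKO 2 and WT 3 together, and 0.37 to 0.47 without 1 library. The cause of these changes was not tested; the depth classes hold fewer libraries. Libraries with the same number did not deviate together (r −0.16 to 0.02 over 5 pairs), and 0 of 5 STAT3cKO libraries correlated best with the WT library of their number. No pairing by replicate number was thus seen, though a weak one could be missed. At depths of 7110000 reads and more all 77 genes of the subunits were read in each library, while low paralogs depend on single libraries.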
